A study of Rattus norvegicus with 15 samples.

Results

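MiR-451 and miR-144, neighbouring microRNAs (miRNAs) of red cells, were followed in hearts of male Sprague-Dawley rats; a miRNA is a small RNA that binds messenger RNAs and lowers their output. They are rno-miR-451 and rno-miR-144 on the array, 2 of its 350 rat miRNAs, were taken by name with all 4 of their probes, and were among the 165 bright enough to be tested. GF rats were diabetic rats with glucose fluctuation: they had received 60 mg/kg streptozotocin, a toxin of insulin-producing beta cells, and were then starved for 24 h and given 0.5 IU/kg insulin into the abdomen. DM rats had received the same streptozotocin injection into the tail vein, and plasma glucose in the diabetic rats was above 300 mg/dL. Veh rats were exposed to vehicle. Each group had 5 arrays, numbered 1, 2, 4, 5 and 6 in GF and 1 to 5 in DM and Veh. Ages and the time between injection and heart collection are not given in the sources used here. Streptozotocin, insulin loss and high glucose come together in GF and DM rats, and the fast and the insulin come together in GF rats, so the parts of each treatment cannot be told apart.

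MiR-144 and miR-451 are made from 1 primary transcript that the factor GATA1 switches on in developing red cells. MiR-451 is unusual among miRNAs in that its short hairpin is cut by Argonaute 2 and not by Dicer, and it is among the most abundant miRNAs of mature red cells, so in a whole organ it is widely used as a sign of blood content. Both have also been found in heart muscle cells. In mice miR-451 acts there on Cab39, a partner of the kinase LKB1, and in human red cells miR-144 acts on the antioxidant regulator Nrf2. In a bulk heart sample, fewer red cells, less of either RNA in each cell and less of it in other heart cells cannot be told apart.

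The mature sequences and their hairpins are shown because the members share a place in the genome and not a seed, the stretch of bases 2 to 8 with which a miRNA finds its targets. Sequences and positions are from RefSeq, build GRCr8. The members lie on the forward strand of chromosome 10, miR-101a-3p at chr5:121081691-121081711 on the reverse strand and miR-101b-3p at chr1:236273982-236274002 on the forward strand. The capitals in the first 4 lines of mature sequence mark the seed.
miR-451-5p: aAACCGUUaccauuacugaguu
miR-144-3p: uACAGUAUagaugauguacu
miR-101a-3p: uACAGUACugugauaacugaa
miR-101b-3p: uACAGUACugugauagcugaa
The capitals in the hairpins mark the mature guide strand.
Mir451a hairpin: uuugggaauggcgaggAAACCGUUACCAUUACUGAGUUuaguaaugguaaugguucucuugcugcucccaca
Mir144 hairpin: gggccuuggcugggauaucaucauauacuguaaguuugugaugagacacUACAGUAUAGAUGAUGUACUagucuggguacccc

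The mature miR-451-5p lies at chr10:63459585-63459606 and miR-144-3p at chr10:63459446-63459465. Their hairpins, of 72 and 83 bases, are separated by 89 bases, and they are the only 2 annotated miRNA genes within 10000 bases. The hairpins lie between the protein-coding genes Flot2 and Eral1 and overlap neither. Of 724 mature rat miRNAs, 0 others share bases 2 to 7 with miR-451-5p. MiR-101a-3p and miR-101b-3p share bases 2 to 7 with miR-144-3p, and 0 share bases 2 to 8. The array names carry no arm and the files hold no probe sequence, so the guide arms above are taken as the measured strands.

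The 15 arrays were 1-colour arrays on 2 slides, each slide holding all 3 groups. Between 166 and 190 rat miRNAs were detected per array, 0 spots were saturated, and the signal at the 75th percentile ran from 1749 to 3422 units. In 5 pairs of arrays of 1 group, the 2 arrays differed by less than the scanner's stated measurement error (reduced chi-square 0.245 to 0.634, against 1.07 to 7.75 in the other 100 pairs). Each such pair was averaged and counted as 1 sample, which left 10 distinct samples: 3 GF, 3 DM and 4 Veh. Whether each array held a separate animal is not stated, so a p-value here rests on variation among arrays and may be partly technical. Heart muscle was well represented, with miR-1, miR-133a, miR-133b, miR-208 and miR-499 all tested, and miR-122 of liver was on the array but too dim to test. Of the neuron list miR-124 was too dim and miR-9 was tested (mean level 4.54 in GF, 4.93 in DM and 5.07 in Veh samples), and of the islet list miR-375 was too dim and miR-7a was tested (6.36 in GF, 6.41 in DM and 6.34 in Veh).

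Array DM 1 lay close to some arrays of its group and far from others. Its reduced chi-square was 4.90 and 5.17 to DM 3 and DM 5, but 1.15 to Veh 5, the lowest of 75 pairs of arrays from different groups. It was also close to DM 2 (1.15) and DM 4 (1.18). DM 2 and DM 4 were themselves 4.91 to 5.63 from DM 3 and DM 5, so DM 1 was not alone in that distance. Veh 5 differed from the other Veh arrays by 3.27 to 4.12. Because of the closeness of DM 1 to Veh 5, results are given with these samples and without them.

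The level of miR-451 was lowest in 2 of the 3 DM samples, intermediate in GF samples and highest in Veh samples. Levels are the log2 of the signal of the brightest probe after scaling each array to its 75th percentile. GF samples read 12.09 (arrays 1 and 5), 11.97 (2 and 4) and 12.35 (6). DM samples read 12.38 (array 1), 11.54 (2 and 4) and 11.72 (3 and 5), against 12.49 (1 and 3), 12.66 (2), 12.42 (4) and 12.40 (5) in Veh samples. Every GF and DM sample lay below every Veh sample, but DM 1 did so by only 0.014 and GF 6 by 0.045. Such a complete separation of the 6 diabetic samples below the 4 Veh samples held for 5 of the 165 tested miRNAs, 3.03%. For DM alone against Veh it held for 8, 4.85%. As linear signal, the geometric means were 4505 units in GF, 3766 in DM and 5764 in Veh hearts.

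MiR-144 followed the same order. GF samples read 9.38 (arrays 1 and 5), 9.20 (2 and 4) and 9.48 (6). DM samples read 9.71 (array 1), 8.89 (2 and 4) and 8.87 (3 and 5), against 9.79 (1 and 3), 9.74 (2), 9.68 (4) and 9.57 (5) in Veh samples. All 3 GF samples and 2 of the 3 DM samples lay below every Veh sample, whereas DM 1 lay within the Veh range. All GF samples lay below all Veh samples for 32 of the 165 tested miRNAs, 19.4%, so this separation was common. The geometric means were 653 units in GF, 571 in DM and 828.8 in Veh hearts.

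**Figure D1:**
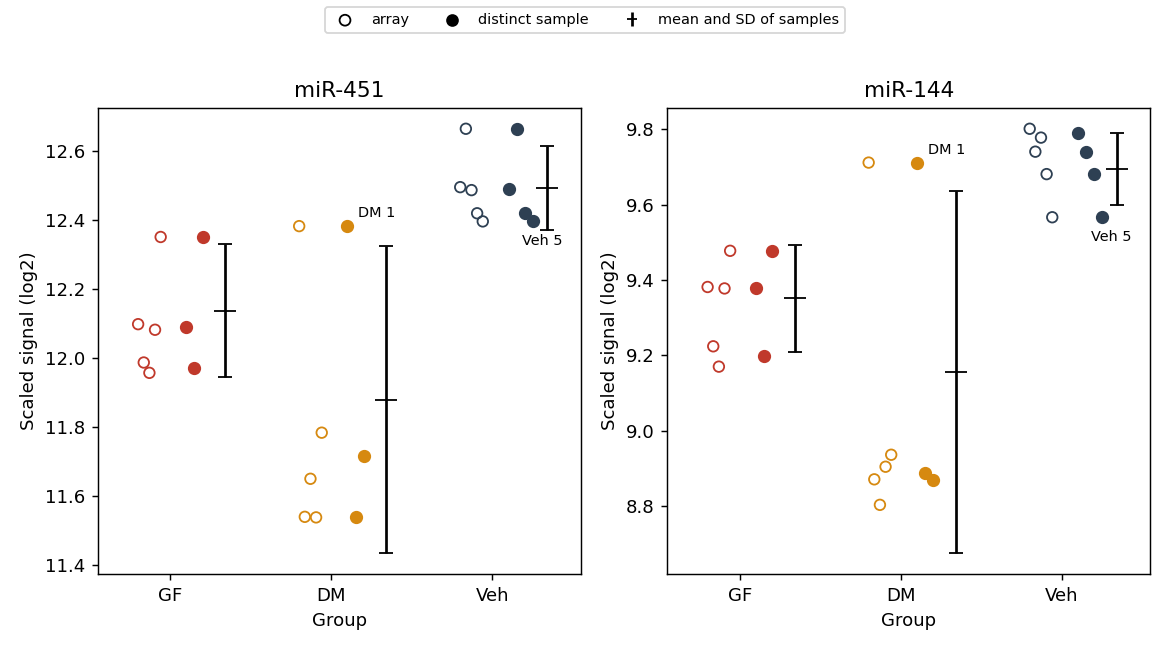
Scaled signal (log2, vertical axes) of miR-451 and miR-144 in GF, DM and Veh hearts. Open circles are the 15 arrays, filled circles the 10 distinct samples, and the bars show the mean and SD over distinct samples; DM 1 lies near the Veh samples, and the other DM samples are the lowest.

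The level of miR-451 averaged 12.14 ± 0.19 over the 3 GF samples, 11.88 ± 0.45 over the 3 DM samples and 12.49 ± 0.12 over the 4 Veh samples (SD). For miR-144 the means were 9.35 ± 0.14 in GF, 9.16 ± 0.48 in DM and 9.69 ± 0.10 in Veh samples. The order of means, DM under GF under Veh, was shared by 10 of the 165 tested miRNAs, 6.06%. The step between GF and DM was smaller than the SD of the DM samples for both members.

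The 5 close pairs each had their arrays on different slides. They were chosen for small differences over many miRNAs, so their closeness is a description. Over them the absolute difference of miR-451 had a median of 0.016 and a highest value of 0.13, between DM 3 and DM 5. For miR-144 the median was 0.033 and the highest value 0.13, in the same pair. Each probe had 10 spots on every array, and all 10 were well above background on all 15 arrays for all 4 probes. The median coefficient of variation over the spots of a probe was between 3.83% and 5.29%.

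The comparison of DM with Veh hearts asked what differs under sustained high glucose. The log2 difference, DM minus Veh, of miR-451 was -0.61 (SE 0.19, 95% confidence interval -1.03 to -0.20) or -34.7% in linear signal. It did not pass after Benjamini-Hochberg adjustment over all tested miRNAs (limma adjusted p = 0.468). The difference of miR-144 was -0.54 (SE 0.19, interval -0.96 to -0.12; limma adjusted p = 0.468), or -31.1% in linear signal. Of the 165 tested miRNAs, 0 passed in this contrast (0%) and 14 had an unadjusted p under 0.05 (8.48%). By unadjusted p, miR-451 stood 2nd and miR-144 5th of the 165.

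The call for DM depended on how the arrays were counted. Over all 15 arrays as separate samples, miR-451 was lower in DM by a log2 difference of -0.71 and miR-144 by -0.67 (limma adjusted p = 0.0175 for each). They were 2 of the 3 miRNAs that passed, 1.82% of those tested. All 5 DM arrays of miR-451 and 4 of 5 of miR-144 lay below every Veh array, but close pairs count here as separate arrays. Over distinct samples, every DM sample lay below every Veh sample for 8 of the 165 tested miRNAs, 4.85%. With the close pairs as a random block the differences were -0.63 and -0.56 (limma adjusted p = 0.137 for each). A wider merge, of arrays with a reduced chi-square under 1.2, left 8 samples and gave -0.74 and -0.67 (limma adjusted p = 0.101 for each). Within slide 1 the differences were -0.72 and -0.64 (limma adjusted p = 0.364 for each), and within slide 2 -0.77 (limma adjusted p = 0.0485) for miR-451 and -0.76 (0.0421) for miR-144. DM 1 was on slide 1, and the DM arrays of slide 2 were DM 4 and DM 5, so the slide 2 fit also leaves out DM 1.

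DM 1 moved these values by the largest amount of any sample. Without DM 1, the distinct samples gave a DM minus Veh difference of -0.87 for miR-451 (limma adjusted p = 0.00856) and -0.82 for miR-144 (0.00532). Without DM 1 and Veh 5, a choice made after seeing the data, they were -0.90 (limma adjusted p = 0.0153) and -0.86 (0.00589). Without DM 2 and 4 they were -0.44 and -0.40 (limma adjusted p = 0.583 for each). Without DM 3 and 5 they were -0.53 and -0.39 (0.601 for each).

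The comparison of GF with Veh hearts asked what differs under diabetes with glucose fluctuation, which includes the streptozotocin, the fast and the insulin. The log2 difference, GF minus Veh, was -0.36 for miR-451 (SE 0.19, interval -0.77 to 0.06; limma adjusted p = 0.2197), or -21.8% in linear signal. For miR-144 it was -0.34 (SE 0.19, interval -0.77 to 0.08; limma adjusted p = 0.243), or -21.2%. Neither was among the 13 of 165 miRNAs that passed, 7.88% (5 higher and 8 lower, but 16 and 2 with no scaling), nor among the 51 with an unadjusted p under 0.05 (30.9%). Over 15 arrays both passed, with -0.40 (limma adjusted p = 0.0346) and -0.39 (0.0430), but so did 60 of 165 miRNAs, 36.4%. By unadjusted p over the distinct samples, miR-451 stood 65th and miR-144 68th.

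GF minus Veh depended on the scaling between arrays. The 75th percentile of signal was 2780 ± 529 units in GF samples, 2027 ± 256 in DM samples and 2205 ± 261 in Veh samples, differences that did not pass (exact permutation p = 0.229 for GF minus Veh and 0.2 for GF minus DM, two-sided, with smallest possible p of 0.0571 and 0.1). With no scaling, GF minus Veh was -0.03 for miR-451 and -0.02 for miR-144, while the median over all tested miRNAs was 0.25. Less that median, the members stood at -0.28 and -0.27, against -0.30 and -0.29 with scaling. The unscaled signal of the members was thus close to that in Veh hearts while that of most other miRNAs was higher in GF. Scaling divides all signals of an array by 1 number, so the members' place relative to the others could hardly change. Its likeness with and without scaling is therefore not a separate result. DM minus Veh kept its size without scaling, at -0.74 (limma adjusted p = 0.173) and -0.66 (0.1998).

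The comparison of GF with DM hearts asked what differs between fluctuating and sustained high glucose. The log2 difference, GF minus DM, was 0.26 for miR-451 (SE 0.20, interval -0.19 to 0.70; limma adjusted p = 0.627) and 0.20 for miR-144 (SE 0.20, interval -0.26 to 0.65; adjusted p = 0.705). Of the 165 tested miRNAs 0 passed (0%), and 18 had an unadjusted p under 0.05 (10.9%). Over 15 arrays the differences were 0.32 (limma adjusted p = 0.1496) and 0.28 (0.204), where 6 miRNAs passed (3.64%). With no scaling over the 15 arrays both passed, at 0.69 and 0.66 (limma adjusted p = 0.0223 for each), where the median over all tested miRNAs was 0.29. With the authors' values over 15 arrays both also passed, at 0.72 and 0.68 (limma adjusted p = 0.0289 for each). Quantile normalization over 15 arrays gave 0.45 for miR-451, which passed (limma adjusted p = 0.0385), and 0.39 for miR-144 (0.0600). The share of all miRNAs past the threshold in these 3 settings is not given here. In rank of the signed difference over distinct samples, miR-451 stood 161st and miR-144 158th from the lowest, so both were near the top of a distribution whose median was -0.08.

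**Figure D2:**
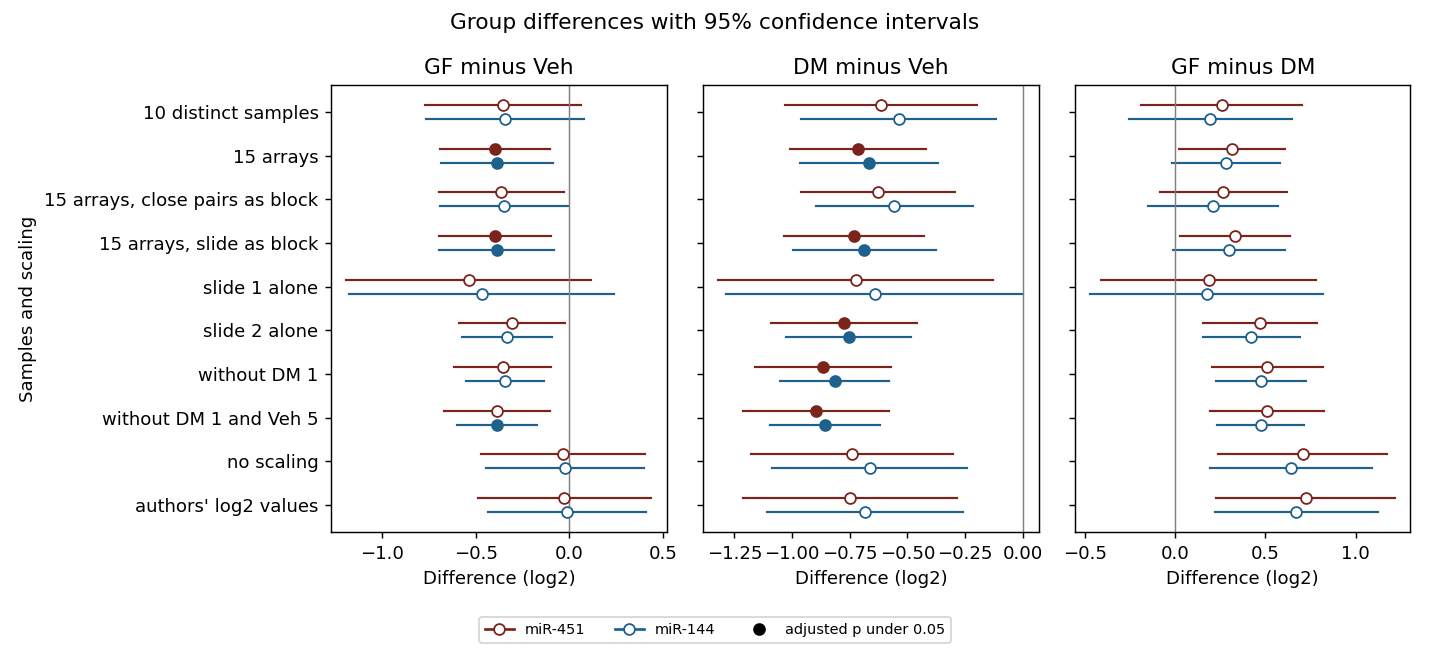
Log2 differences (horizontal axes) of miR-451 and miR-144 for GF minus Veh, DM minus Veh and GF minus DM, by how samples were counted and scaled (vertical axis). Lines are 95% confidence intervals, and filled points have an adjusted p under 0.05; the DM minus Veh points lie below 0 in every row, while GF minus Veh is near 0 with no scaling and with the authors' values.

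With DM and GF averaged against Veh, the difference was -0.48 for miR-451 (SE 0.16, interval -0.84 to -0.13; limma adjusted p = 0.0916). For miR-144 it was -0.44 (SE 0.16, interval -0.80 to -0.08; adjusted p = 0.124). Of the 165 tested miRNAs 0 passed (0%), and 42 had an unadjusted p under 0.05 (25.5%). Over 15 arrays both were lower, at -0.56 (limma adjusted p = 0.00458) and -0.53 (0.00585), with 44 miRNAs past the threshold (26.7%). Without DM 1 both passed over distinct samples, at -0.61 (limma adjusted p = 0.0181) and -0.58 (0.0110).

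Among all tested miRNAs, few had a lower DM minus Veh difference than the members. MiR-451 stood 3rd and miR-144 5th from the lowest in DM minus Veh. In GF minus Veh they stood 26th and 29th from the lowest.

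**Figure D3:**
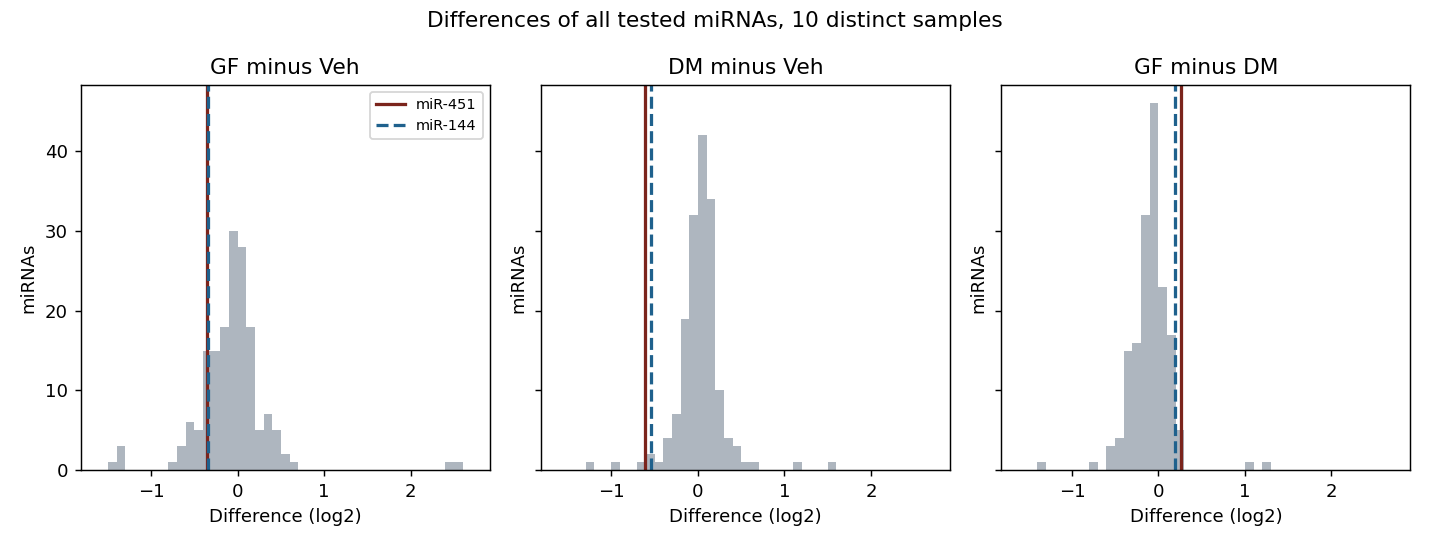
Numbers of miRNAs (vertical axes) by log2 difference (horizontal axes) over the 165 tested miRNAs in GF minus Veh, DM minus Veh and GF minus DM. The solid line marks miR-451 and the dashed line miR-144, which lie in the low tail for DM minus Veh and on the high side for GF minus DM.

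The 2 probes of each member gave similar differences. In DM minus Veh, the brighter miR-451 probe, A_26_P00001590, gave -0.61 and the dimmer, A_26_P00001589, gave -0.63. The brighter miR-144 probe, A_26_P00001384, gave -0.54 and the dimmer, A_26_P00001383, gave -0.64. In GF minus Veh the 4 probes ran from -0.36 to -0.29, and in GF minus DM from 0.20 to 0.35. With each probe fitted separately among 300 probes, 0 of the 4 passed in any contrast (lowest limma adjusted p = 0.0808, for the dimmer miR-144 probe with DM and GF averaged against Veh).

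The members moved together from sample to sample. Across the 10 distinct samples their levels had a Pearson r of 0.967 (permutation p = 4e-05) and a Spearman rho of 0.939 (permutation p = 0.00017). Without DM 2 and 4 and DM 3 and 5, the samples farthest from the median of miR-451, r was 0.913 (permutation p = 0.00092). Deviations from the group means had r of 0.937 (permutation p = 0.00013), so the relation did not rest on the group means alone. In these deviations the DM samples weigh most, with an SD of miR-451 of 0.45, against 0.19 in GF and 0.12 in Veh. The relation was not tested in any group alone. The 3 correlations are 1 relation computed on nested or centred values and were not adjusted, and samples also share the scaling of their array. With no scaling r was 0.980.

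**Figure D4:**
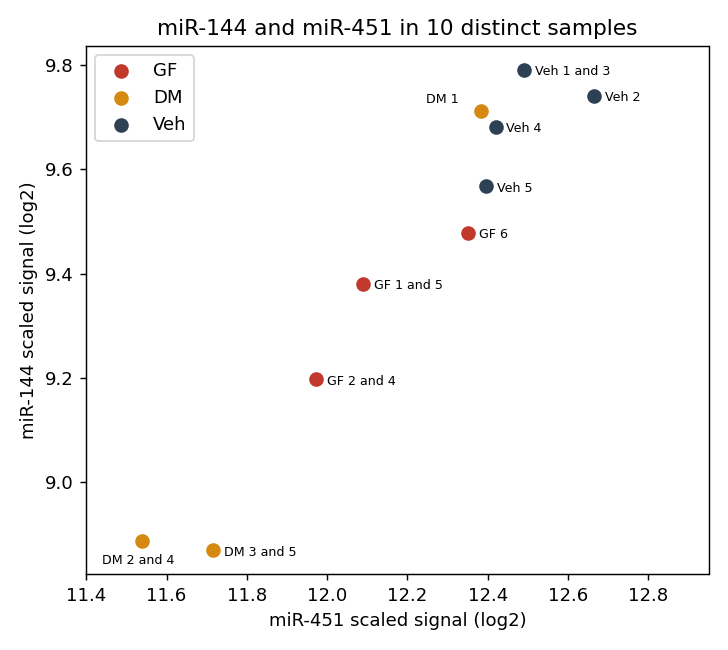
MiR-144 scaled signal (log2, vertical axis) against miR-451 scaled signal (log2, horizontal axis) in the 10 distinct samples, coloured by group and named by array number. The samples form a rising line with r of 0.967, with DM 2 and 4 and DM 3 and 5 at its low end and DM 1 among the Veh samples.

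The log2 signal of miR-144 less that of miR-451, which can be compared between samples though not read as a ratio of 2 RNAs, differed between the group means by 0.08 or less. It averaged -2.79 ± 0.08 over GF samples, -2.72 ± 0.11 over DM samples and -2.80 ± 0.10 over Veh samples (SD, n = 3, 3 and 4). The differences were 0.01 for GF minus Veh (exact permutation p = 0.914, adjusted over the 3 comparisons 0.914), 0.08 for DM minus Veh (p = 0.343, adjusted 0.75) and -0.06 for GF minus DM (p = 0.5, adjusted 0.75). The smallest two-sided p is 0.0571 against Veh and 0.1 between GF and DM, so no such comparison could pass. Without DM 3 and 5, the difference was 0.14 for DM minus Veh and -0.13 for GF minus DM.

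Of 10 other miRNAs that are abundant in red cells, 9 were on the array and tested, and in DM minus Veh 0 passed in limma and 4 had a difference below 0, with a median of 0.02, against 0.03 over all tested miRNAs. The 4 with the largest absolute DM minus Veh differences were miR-185 (0.41, limma adjusted p = 0.468), miR-20a (0.28, 0.468) and miR-92a (0.28, 0.548) of the cluster that also gives miR-17, and miR-93 (-0.18, 0.546). In GF minus Veh 1 passed, miR-20a (0.47, limma adjusted p = 0.0367), which was higher, and the median of the 9 was -0.05, as over all tested miRNAs. The summed signal of the 9 ran from 22048 to 22903 units in GF, 22278 to 24232 in DM and 21382 to 24054 in Veh samples, so the groups overlapped. This sum is set mostly by miR-16 and let-7b (mean level 13.09 and 12.98 in Veh samples, against 11.16 for the next, miR-107). These miRNAs are also made in other tissues, and miR-486 was not measured here. The part of blood content in the members' differences was not tested.

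Of 7 miRNAs known as regulators in the red cell line, 5 were tested, and 0 passed in DM minus Veh (median 0.02) or in GF minus Veh (median -0.15). MiR-223, which acts on the erythroid factor LMO2, had the largest absolute DM minus Veh difference (0.36, limma adjusted p = 0.468) and a GF minus Veh difference of 0.51 (0.0611). MiR-150 stood at -0.27 (0.468) and miR-210, a hypoxia-induced miRNA, at -0.20 (0.546) in DM minus Veh, and miR-24, which acts on an activin receptor of red cell precursors, at 0.04 (0.913). The summed signal was 12031 to 13216 units in GF, 12514 to 14723 in DM and 12681 to 14885 in Veh samples. It is set mostly by miR-24 (mean level 13.43 in Veh samples, against 10.72 for the next, miR-150).

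Of 6 tested leukocyte and platelet miRNAs, 3 were lower in GF than in Veh hearts, where 8 of all 165 were lower (4.85%). These calls are with scaling, and with no scaling 2 of all tested miRNAs were lower. In this list 0 passed in DM minus Veh (median -0.10), where miR-223 and miR-150 had the largest absolute differences, followed by miR-342-3p (-0.17, limma adjusted p = 0.555) and miR-142-5p (-0.10, 0.795). The 3 that were lower in GF minus Veh were miR-142-5p (-0.64, limma adjusted p = 0.0367), miR-342-3p (-0.57, 0.0194) and miR-146a (-0.46, 0.0194), and the median was -0.47. The rest of the list did not pass: miR-142-3p stood at -0.48 (limma adjusted p = 0.0887) and miR-150 at -0.01 (0.966). MiR-223 went the other way, at 0.51 (0.0611). The summed signal ran from 5104 to 5842 units in GF, 5458 to 6716 in DM and 6397 to 6685 in Veh samples; every GF sample lay below every Veh sample, as for 19.4% of single tested miRNAs. The part of white cell content in the members' GF minus Veh difference was not tested.

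Of the 4 vessel wall miRNAs, endothelial miR-126 and its partner strand miR-126* and smooth muscle miR-143 and miR-145, 0 passed in DM minus Veh or GF minus Veh. With scaling, miR-126 stood at -0.37 in GF minus Veh (limma adjusted p = 0.0542) and -0.18 in DM minus Veh (0.548). MiR-126* stood at -0.20 (0.546), miR-143 at 0.16 (0.709) and miR-145 at -0.02 (0.983) in DM minus Veh. The 2 miRNAs that share bases 2 to 7 with miR-144 had differences above 0: miR-101a was higher in GF than in Veh (0.43, limma adjusted p = 0.0194), and miR-101b stood at 0.17 (0.258). In DM minus Veh they stood at 0.24 (0.468) and 0.12 (0.651).

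Heart muscle miRNAs mark the tissue. With scaling, all 5 had differences below 0 in GF minus Veh and in DM minus Veh. Of all tested miRNAs, 58.8% and 41.2% did so. Of the 5, miR-208, encoded in a myosin heavy chain gene, was lower in GF than in Veh (-1.34, limma adjusted p = 0.0194). The other 4 ran from -0.35 to -0.11 in DM minus Veh, where 0 passed. The summed signal of the 5 ran from 114861 to 132783 units in GF, 126683 to 135860 in DM and 124291 to 170763 in Veh samples. The GF minus Veh values of this and the other lists are with scaling, where the median over all tested miRNAs was -0.05. With no scaling that median was 0.25, and the lists' values in that setting are not given here.

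**Figure D5:**
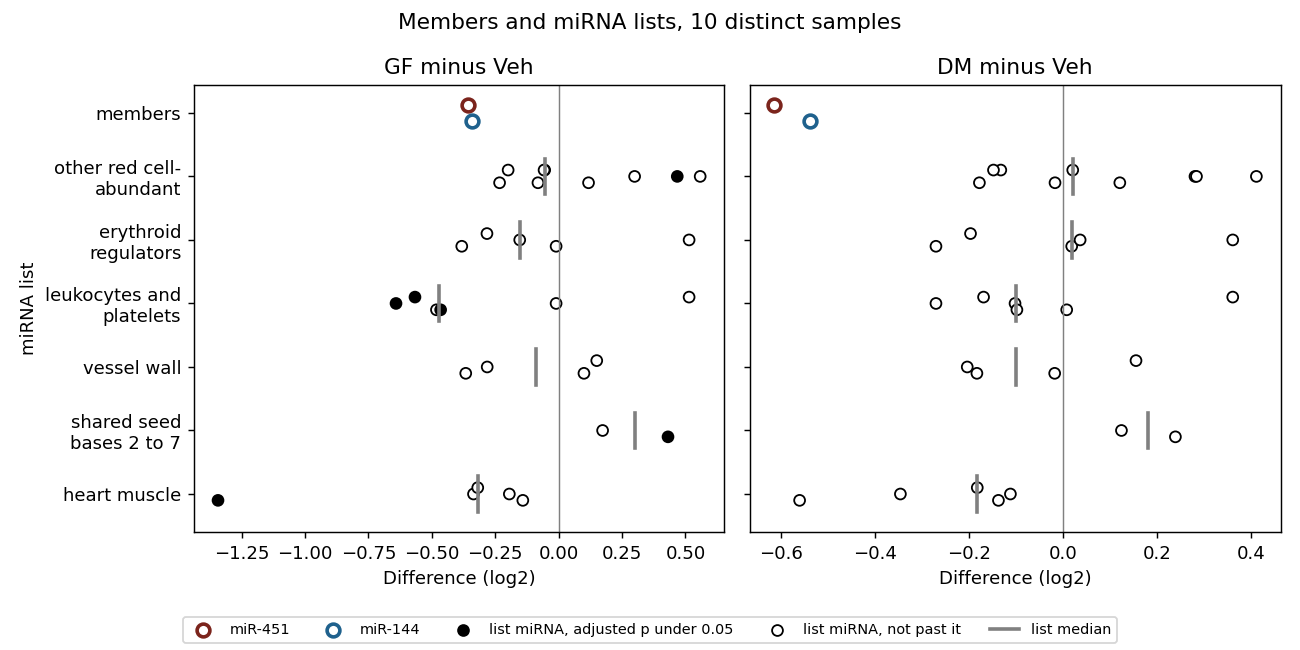
Log2 differences (horizontal axes) of the members and of each tested miRNA of 6 lists (vertical axis) for GF minus Veh and DM minus Veh over distinct samples. Filled circles have an adjusted p under 0.05 and grey bars are list medians; in DM minus Veh miR-451 lies left of every listed miRNA, and miR-144 left of every one but miR-208.

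The 5 miRNAs whose level followed the mean of the members most closely over the 10 distinct samples were miR-340-3p (Pearson r 0.729), miR-335 (0.689), miR-22* (0.681), miR-25 (0.673) and miR-126 (0.644). MiR-335 lay near the floor of 4.31 (mean level 4.35 in GF and 4.53 in DM samples), and miR-25 varied little (SD 0.07 over the samples). With no scaling the 5 had r of 0.833, 0.489, 0.766, 0.662 and 0.798, in the same order. The 3 lowest were miR-185 (-0.779), miR-17 (-0.701) and miR-92a (-0.627), and with no scaling these were -0.000247, 0.153 and 0.180, so the opposite course depended on the scaling. Of the other 163 tested miRNAs, 75 had an r above 0 (46.0%), with a median of -0.07. Of the 5, miR-22* had the lowest differences, at -0.41 in DM minus Veh (limma adjusted p = 0.468) and -0.56 in GF minus Veh (0.0194).

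The authors' deposited table lists both members among its 35 miRNAs that differ among the 3 groups, with an uncorrected p of 0.00464 for miR-451 and 0.00393 for miR-144. The authors' deposited log2 values cover 149 miRNAs, so being listed was not rare. The authors' deposited table gives a log2 ratio of GF over Veh of -0.04 for each, and of DM over Veh of -0.76 for miR-451 and -0.72 for miR-144. The remaining ratio runs DM over GF, and in the authors' deposited table it was -0.72 and -0.68. Both members are in the authors' deposited table of 5 miRNAs for Veh against DM and in that of 20 for DM against GF, and neither is in that of 30 for Veh against GF. Those ratios carry no percentile scaling and are over all 15 arrays, so close pairs count there as separate arrays. With no scaling over the 15 arrays, GF minus Veh was -0.06 for miR-451 and -0.05 for miR-144, close to the authors' ratios.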

How the data were processed

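Each array's deposited file gives signal intensity per spot, read with Agilent Feature Extraction 9.5.3.1 per the submitters' processing notes and the file headers; the authors subtracted background and did not scale between arrays. The authors' deposited tables also hold log2 values, which equalled the centred log2 total gene signal to within 2.05e-06, and p-values of an uncorrected test. Per the labels, 100 ng of total RNA was labelled with Cy3.

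Flagged spots were dropped, spots averaged per probe, and each array scaled to the 75th percentile of 254 probes that exceeded background clearly on all 15 arrays. Values under 19.8 units (log2 4.31) were set to that floor, log2 was taken, and the brightest probe stood for a miRNA. A miRNA was tested if its probe was well above background in at least 3 arrays of a group, which left 165 of 350. Arrays of 1 group with a reduced chi-square under 1 were averaged. The groups were compared with limma 3.58.1 (R 4.3.3), tested on simulated data, in 1 fit over 10 distinct samples, with Benjamini-Hochberg adjustment over the 165 miRNAs and a threshold of 0.05. Single values were compared with exact permutation tests (scipy 1.17.1); correlation p-values came from random permutations.

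The number of arrays limits the precision. The members, the lists and the tests were chosen with earlier results of these data known. The named miRNAs are both members, the 5 highest and 3 lowest in correlation with them, the sharers of bases 2 to 7, and up to 4 of each list with the largest absolute DM minus Veh difference; a few others past the threshold, or needed beside a result, were named after their values were seen. Alternatives changed the counting of arrays, blocks, scaling, summary and filter, or left out samples; leaving out DM 1 and Veh 5 together was added after seeing the data. Normexp used the median spot signal, because the files hold no mean signal column. Sequences are from RefSeq, build GRCr8.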

Additional observations from a re-analysis of the deposited data

How the results depend on the processing

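The direction of the members' 4 differences was the same under every alternative run, and so was the side of the threshold for GF minus DM over distinct samples. For GF minus Veh the shared sign says little. Over distinct samples it was -0.03 and -0.02 with no scaling and -0.02 and -0.01 with the authors' values (SE 0.20 to 0.22). With all 15 arrays as separate samples, with slide as a block and with the replicate block, the DM minus Veh differences were -0.71, -0.73 and -0.71 for miR-451 and -0.67, -0.69 and -0.67 for miR-144, and all passed. Under the same 3 settings GF minus Veh was -0.40, -0.40 and -0.48 for miR-451 and -0.39, -0.39 and -0.45 for miR-144, and DM and GF averaged minus Veh was -0.56, -0.56 and -0.60 for miR-451 and -0.53, -0.54 and -0.56 for miR-144, all past the threshold. With the close pairs as a random block, DM and GF averaged minus Veh passed for miR-451 alone (-0.50). Within slide 2, which did not hold DM 1, DM minus Veh passed (-0.77 for miR-451 and -0.76 for miR-144). The replicate numbers were not taken to pair the samples. Deviations of same-numbered arrays had r of -0.528 to 0.474 (13 pairs, median 0.0596). In the 62 other pairs r was -0.538 to 0.596 (median -0.0333). These overlapping ranges cannot decide whether the numbers pair the samples.

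Without DM 1 and Veh 5 (added after seeing the data), DM minus Veh passed for both (-0.90 and -0.86), GF minus Veh for miR-144 (-0.39), and DM and GF averaged minus Veh for both (-0.64 and -0.62). Leaving out each distinct sample in turn gave -0.87 to -0.44 (miR-451) and -0.82 to -0.39 (miR-144) for DM minus Veh, -0.46 to -0.27 and -0.41 to -0.27 for GF minus Veh, 0.09 to 0.51 and 0.05 to 0.47 for GF minus DM, and -0.61 to -0.40 and -0.58 to -0.37 for DM and GF averaged minus Veh. Calls came only without DM 1. For miR-144 less miR-451, GF minus Veh ran from -0.0296 to 0.0559, and turned negative without GF 1 and 5 (-0.0256) and without Veh 2 (-0.0296). Its DM minus Veh value ran from 0.0339 to 0.138 and its GF minus DM value from -0.126 to -0.0199 without 1 sample, and with normexp they were 0.154 and -0.140.

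Counts of called miRNAs moved more. For DM minus Veh (0 over distinct samples) there were 3 with 15 arrays, 3 with slide as a block, 4 with the replicate block, 2 within slide 2, 2 without DM 1 and Veh 5, and 0 to 2 without 1 sample. For GF minus Veh (13, of which 5 higher and 8 lower) there were 60, 57 and 50 with 15 arrays, slide and replicate block, 0 within slide 1, within slide 2, with the wider merge of close arrays and with no filter, 28 with normexp (4 higher and 24 lower), 2 with the authors' values (2 higher and 0 lower), 31 without DM 1 and Veh 5, and 0 to 28 without 1 sample. The split also turned where the count stayed close: 16 higher and 2 lower with no scaling, 15 and 1 with all probes in the percentile, 14 and 1 with the hur control spots, 7 and 3 with quantile normalization, and 3 and 13 with total gene signal. For GF minus DM (0) there were 6, 5 and 1 with 15 arrays, slide and replicate block, 1 with no scaling, and 0 to 6 without 1 sample. For DM and GF averaged minus Veh (0) there were 44, 43 and 42 with 15 arrays, slide and replicate block, 12 with close pairs as a random block, 3 with all probes in the percentile, 2 with no scaling, 1 with quantile normalization, 16 with the hur control spots, 2 with normexp, 2 with the authors' values, 24 without DM 1 and Veh 5, and 0 to 19 without 1 sample. The cause of these moves was not tested. Signal over background did not limit the members, since all their spots were well above background.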
